A study of Mus musculus with 142 samples.

Results

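Fhit, Wwox, Macrod2, Lrp1b, Dlg2, Ctnna3, Cntnap2 and Csmd1 are very long genes that replicate late in many cell types, several of them known as common fragile sites. They were chosen by name. Their mm10 gene bodies overlapped 290 of the 49264 windows of 50 kb for which replication timing (RT) was given, and they are 8 of the 20780 autosomal protein-coding genes of the annotation and of the 218 that span at least 500 kb. The values are log2 ratios of the reads from early S phase over those from late S phase, log2(E/L), in which a value above 0 means more early than late reads after the authors' scaling. They were measured for each parental allele in F121-9 cells, a hybrid mouse embryonic stem cell (mESC) line of a CAST-129 cross, grown in 2i and LIF. The allele of the laboratory strain is called genome 1 here, as in the deposited headers, and the other allele CAST.

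All 66 libraries came from clones with CRISPR-mediated deletions in the Dppa2/4 domain of chromosome 16, 53 clones of 26 deletions in all, and 19 deletions had at least 2 clones. The names of the deletions give the element (Z, A, B or C) and what was removed from it: the whole element, its OSN sites (binding sites of pluripotency transcription factors, numbered), its transcription start site (TSS), or, as CL and CR, a stretch at the left or right of C with its size in kb. Most deletions were on genome 1 alone. In the lines used by name below, ATSS.BTSS.CTSS had its ATSS deletion on both alleles, CTSS clone C4 was deleted on CAST, and 1 A.B.COSN123 clone had B deleted on both alleles. No library of the unmodified parental line was used here. Several lines were made from one another (the larger COSN combinations carry the C deletions of a COSN line), so clones are not all of independent origin, and p-values measure only the spread between these clones. None of the 8 genes lies on chromosome 16, and the deletions targeted neither of their alleles. As a check of the cell label by timing, not by expression, the 8 pluripotency genes examined (Pou5f1, Sox2, Nanog, Zfp42, Esrrb, Klf4, Tfcp2l1 and Dppa5a) had RT from 0.89 in Zfp42 to 1.28 in Esrrb, all above 0.

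Common fragile sites are stretches that break or leave gaps when replication is slowed. Many of them lie in genes whose transcription units are so long that replication and transcription can meet within them, and which have few replication start sites in their interiors, so that forks must travel far to finish them. Fragility differs between cell types, and late RT across the gene is one of its usual marks. The assay used here reads RT, not breakage or transcription.

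The 8 genes fall into a small group of enzymes and a larger group of cell surface and synaptic proteins. Fhit encodes a diadenosine triphosphate hydrolase and lies on the minus strand of chr14:9550092-11162035, with 10 exons and a largest intron, intron 5, of 551 kb. Wwox encodes a WW domain oxidoreductase and is the shortest of the 8 at chr8:114439655-115352708 on the plus strand, with 639 kb of it in intron 8. Macrod2, a mono-ADP-ribosylhydrolase gene at chr2:140395309-142392966 on the plus strand, holds the gene Flrt3 inside it.

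Lrp1b encodes a large receptor of the LDL receptor family in 91 exons on the minus strand of chr2:40595246-42653624. Dlg2 encodes a scaffold protein of the postsynaptic density and spans chr7:90476672-92449247 on the plus strand. Ctnna3, at chr10:63430098-65003667 on the plus strand, encodes an alpha-catenin of cell junctions and holds Lrrtm3 and Gm10118. Cntnap2 encodes a neurexin-like adhesion protein of axons at chr6:45059357-47304213 on the plus strand and is the longest of the 8 at 2.24 Mb. Csmd1, in 70 exons on the minus strand of chr8:15892537-17535586, encodes a membrane protein with complement-control domains.

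Promoter sequences are shown for 3 genes whose start sites lay in different RT or in windows where the alleles were apart. RefSeq promoters (GRCm38.p6, the build of the files; 250 bases before to 50 after each start) were at hand for 5 of the 8 genes, 12 promoters in all. The capitals mark CG dinucleotides, and each is written from 5′ to 3′ on the strand of its gene.

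In Ctnna3 the first start site (chr10:63429848-63430147) held 39 CG and lay in a window with an RT of 1.30 ± 0.14 (SD, n = 53 clones). The start site 391 kb into the gene (chr10:63820805-63821104) held 2 CG and lay in a window at −0.83 ± 0.35 (SD, n = 53).
Ctnna3 first start: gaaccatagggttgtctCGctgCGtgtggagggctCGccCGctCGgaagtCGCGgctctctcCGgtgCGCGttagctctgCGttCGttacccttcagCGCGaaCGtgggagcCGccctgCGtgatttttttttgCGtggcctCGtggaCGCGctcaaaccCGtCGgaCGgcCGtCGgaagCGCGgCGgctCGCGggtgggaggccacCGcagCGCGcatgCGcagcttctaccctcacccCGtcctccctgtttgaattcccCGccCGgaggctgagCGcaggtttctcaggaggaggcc
Ctnna3 inner start: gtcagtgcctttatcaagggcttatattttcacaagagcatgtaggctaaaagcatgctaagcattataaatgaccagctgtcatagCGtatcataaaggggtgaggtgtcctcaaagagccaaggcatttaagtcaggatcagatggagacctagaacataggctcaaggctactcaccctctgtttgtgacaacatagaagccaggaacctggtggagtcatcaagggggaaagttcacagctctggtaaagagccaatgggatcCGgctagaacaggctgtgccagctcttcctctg

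Cntnap2 had the opposite arrangement. Its first start site (chr6:45059811-45060110) held 14 CG and lay in a window at −1.34 ± 0.25 (SD, n = 35 clones with a value), whereas the start site 2185 kb into the gene (chr6:47244146-47244445) held 3 CG and lay in a window at 0.52 ± 0.20 (SD, n = 53).
Cntnap2 first start: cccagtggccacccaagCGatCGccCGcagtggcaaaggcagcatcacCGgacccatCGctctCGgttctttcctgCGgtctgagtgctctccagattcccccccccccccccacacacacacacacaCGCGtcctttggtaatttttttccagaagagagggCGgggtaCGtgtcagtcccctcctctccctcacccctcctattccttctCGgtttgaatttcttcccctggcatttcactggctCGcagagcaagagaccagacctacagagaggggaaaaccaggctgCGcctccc
Cntnap2 inner start: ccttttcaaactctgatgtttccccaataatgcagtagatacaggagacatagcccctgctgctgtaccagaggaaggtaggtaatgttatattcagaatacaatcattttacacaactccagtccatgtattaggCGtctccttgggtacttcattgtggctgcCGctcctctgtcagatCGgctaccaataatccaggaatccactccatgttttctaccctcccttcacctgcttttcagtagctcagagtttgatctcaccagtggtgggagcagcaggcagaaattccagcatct

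The start sites of Fhit, on the minus strand, lay in windows that differed in how far the alleles were apart. At the first start (chr14:11161986-11162285), with 12 CG, genome 1 had −0.37 and CAST −0.19. At the inner start (chr14:10453409-10453708), with 7 CG, genome 1 had −1.03 and CAST −0.42.
Fhit first start: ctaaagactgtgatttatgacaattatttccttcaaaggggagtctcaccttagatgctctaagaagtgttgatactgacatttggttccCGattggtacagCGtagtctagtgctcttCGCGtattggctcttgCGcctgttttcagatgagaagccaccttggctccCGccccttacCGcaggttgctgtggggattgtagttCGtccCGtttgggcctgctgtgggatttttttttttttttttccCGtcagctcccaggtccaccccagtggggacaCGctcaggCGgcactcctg
Fhit inner start: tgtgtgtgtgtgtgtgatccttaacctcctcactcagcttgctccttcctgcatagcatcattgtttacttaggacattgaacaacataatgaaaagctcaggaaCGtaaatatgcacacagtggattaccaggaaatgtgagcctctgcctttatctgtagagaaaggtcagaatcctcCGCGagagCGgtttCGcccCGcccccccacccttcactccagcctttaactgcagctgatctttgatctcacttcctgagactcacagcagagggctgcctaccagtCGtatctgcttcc

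Both strands of these promoters were searched for TATAAA (held by 13.6% of all 32851 RefSeq promoters), CCAAT (37.4%) and GGGCGG (35.7%). GGGCGG was present at the first starts of Ctnna3, Cntnap2 and Fhit and at the inner start of Fhit. TATAAA was present at the inner start of Ctnna3, and CCAAT there, at the inner start of Cntnap2 and at the first start of Fhit. A match describes these letters in this stretch and is not a bound site. The median promoter of all genes held 7 CG.

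All 8 genes replicated late. Averaged over the windows of a gene and both alleles, every gene was below 0 in every clone with a value. The median of the 8 gene means was −0.94, beside −0.81 for the 217 genes of at least 500 kb with enough values (75.6% of them below 0) and 1.11 for all 19312 genes tested (19.8% below 0). The level of the 8 genes was thus close to that of other long genes and far below that of most genes.

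Csmd1 was the latest, at −1.33 ± 0.15 (SD, n = 53 clones), with a lowest, median and highest clone of −1.66, −1.32 and −1.08. Only 1.48% of all genes were later. Macrod2 had −1.06 ± 0.12 (lowest −1.29, median −1.09, highest −0.73, n = 53). These clones all lay within the late range, and Macrod2 had the narrowest spread of the 8. Dlg2 had −1.02 ± 0.21 (lowest −1.37, median −1.03, highest −0.52, n = 53). Lrp1b had −0.97 ± 0.16 (lowest −1.41, median −0.98, highest −0.60) in the 47 clones with enough windows. Cntnap2 had −0.91 ± 0.28 (lowest −1.37, median −0.96, highest −0.22, n = 53). In terms of spread these 4 genes overlapped each other, and their order is not settled by these values.

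The earlier group was formed by Fhit, Wwox and Ctnna3. Fhit had −0.66 ± 0.13 (lowest −1.09, median −0.65, highest −0.44, n = 51; the CAST allele of chromosome 14 had no values in both Z.B.C clones). Wwox had −0.65 ± 0.19 (lowest −1.35, median −0.66, highest −0.22, n = 53). Fhit and Wwox did not differ beyond their spread. Ctnna3 had −0.48 ± 0.20 (lowest −0.89, median −0.45, highest −0.09, n = 53), and its mean joins an early start and a late body. The plot of gene means by clone shows the 8 genes side by side.

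**Figure D1:**
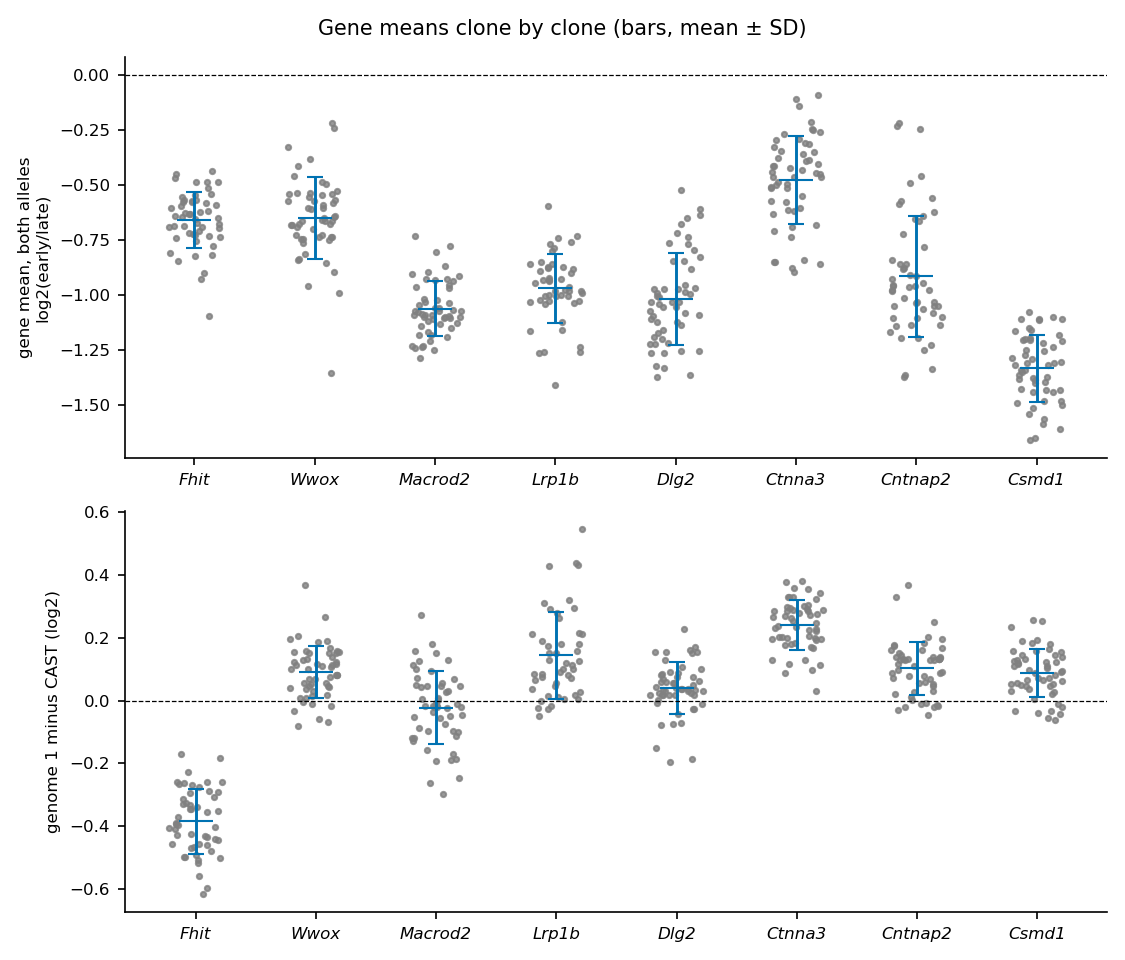
Top, mean log2(E/L) of both alleles over the windows of each gene, 1 point per clone, with mean ± SD; every point lies below 0, from Csmd1 at −1.33 to Ctnna3 at −0.48. Bottom, genome 1 minus CAST of the same genes; every Fhit point lies below 0 and every Ctnna3 point above it.

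Late windows were often without a value. Windows of the 8 genes with a mean below −1 had a value in 72.7% of libraries, against 99.9% for those above 0. A gene mean therefore rests on fewer late windows in a clone with fewer values, and over the clones the gene mean fell with the number of windows measured genome-wide in 7 of the 8 genes. For Dlg2, Pearson's r was −0.89 and Spearman's rho −0.84 over 53 clones (permutation p = 1e-05 for both, the smallest the permutations can give; adjusted p = 1.6e-05 over the 8 genes; r = −0.87 without the 2 clones farthest from the median number of windows). Cntnap2, Ctnna3, Csmd1 and Macrod2 had an r of −0.88, −0.86, −0.82 and −0.76 (rho −0.81, −0.90, −0.83 and −0.65), with the same p and r between −0.86 and −0.70 without 2 clones. Lrp1b had an r of −0.56 and a rho of −0.42 (adjusted permutation p of 5.3e-05 and 0.0049; r = −0.53 without 2 clones), and Wwox an r of −0.36 and a rho of −0.35 (0.0097 and 0.013; r = −0.39). Fhit, of which few windows were missing, had an r of −0.04 and a rho of −0.09 (adjusted p = 0.80 and 0.54; r = −0.01). When the mean of each window over clones was removed before averaging, so that a missing window no longer shifts the gene mean, r was −0.77 for Csmd1, −0.63 for Ctnna3, −0.57 for Dlg2, −0.54 for Cntnap2 and −0.49 for Macrod2. For Lrp1b it was −0.20, the largest loss in proportion, while for Wwox it stayed at −0.35 and for Fhit it was −0.01. The mean over window means, which counts each window once, was −1.17 for Dlg2, −1.11 for Cntnap2 and −0.64 for Ctnna3.

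Along the gene from start to end, the 8 genes had different shapes (plot of RT along each gene). Windows are given by the distance of their centre from the gene start, and extremes were taken over windows with a value in at least 27 clones. Windows that a gene overlapped only in part were counted, so first and last windows can lie mostly outside it. The last window of Wwox was chr8:115350001-115400000, while the gene ends at 115352708. The last window of Cntnap2 and the first of Macrod2 also lay mostly outside their genes. Ctnna3, Dlg2 and Macrod2 were earliest at or near their starts. In Ctnna3 the first window had 1.30 ± 0.14 (SD; lowest 0.76, median 1.32, highest 1.48, n = 53), the highest value of any window in the 8 genes. RT then fell to −1.39 ± 0.21 at 745 kb in intron 7 (n = 30). It rose a second time to a local maximum within the 3′ part of the gene, where the alleles separated. Dlg2 began at 0.24 ± 0.14 (lowest −0.10, median 0.26, highest 0.54, n = 53) and reached −1.57 ± 0.16 at 1398 kb near exon 10 (n = 38). It came back to −0.22 ± 0.19 in the last window (lowest −0.75, median −0.24, highest 0.23, n = 53), so that a late interior lay between earlier ends.

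Macrod2 began at −0.14 ± 0.19 (lowest −0.56, median −0.14, highest 0.21, n = 53) and was latest at 1680 kb in intron 8, with −1.37 ± 0.20 (n = 39). Wwox declined along its whole length, from −0.16 ± 0.31 in the first window (lowest −0.70, median −0.19, highest 0.59) to −1.12 ± 0.25 in the last (lowest −1.86, median −1.12, highest −0.70, n = 53 for both). The latest window lay in the downstream part of Wwox in 52 of 53 clones, and within 3 windows of the gene end in 48. In Ctnna3 it lay within 3 windows of that of the mean curve in 36 of 53 clones, in Fhit in 25 of 51. The latest window of Macrod2, Dlg2, Cntnap2 and Csmd1 lay at that distance in 19 to 22 of 53 clones. Each clone's latest window was sought among those it had. The latest window of the mean curve had a value in 39, 38, 27 and 48 clones of these genes and in 30 of Ctnna3, so these counts depend on missing values too.

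Cntnap2 and Csmd1 had the reverse shape, late at the start and earlier at the end. Cntnap2 stayed close to its first window (−1.34 ± 0.25, n = 35) over most of its length, was latest at 1366 kb near exon 12 (−1.54 ± 0.14, n = 27), and rose to 0.86 ± 0.19 in the last window (lowest 0.31, median 0.87, highest 1.16, n = 53). Csmd1 had −1.40 ± 0.19 at its start (n = 52), −1.52 ± 0.20 at 1061 kb near exon 7 (n = 48) and −0.75 ± 0.20 at its end (lowest −1.17, median −0.74, highest −0.15, n = 53), so that even its earliest window was late in all clones. Fhit was shallow, with a latest window of −0.90 ± 0.17 at 487 kb in intron 4 (n = 50) and an earliest of −0.13 ± 0.25 at 1487 kb in intron 8 (n = 51).

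Lrp1b could be followed only in part. Of its 43 windows 14 held no value in any library, all between chr2:41500001 and chr2:42300000, that is 378 to 1128 kb from the start, and 67.5% of its window values were missing. The empty windows had 36.8% GC and the others 36.2%. Its latest measured window, at 229 kb in intron 1, had −1.42 ± 0.19 (n = 30). Its earliest, −0.67 ± 0.48 at 1179 kb over exons 11 to 15 (n = 50), bordered the empty stretch and had the widest spread of any window in the 8 genes, from −1.72 to 0.95.

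**Figure D2:**
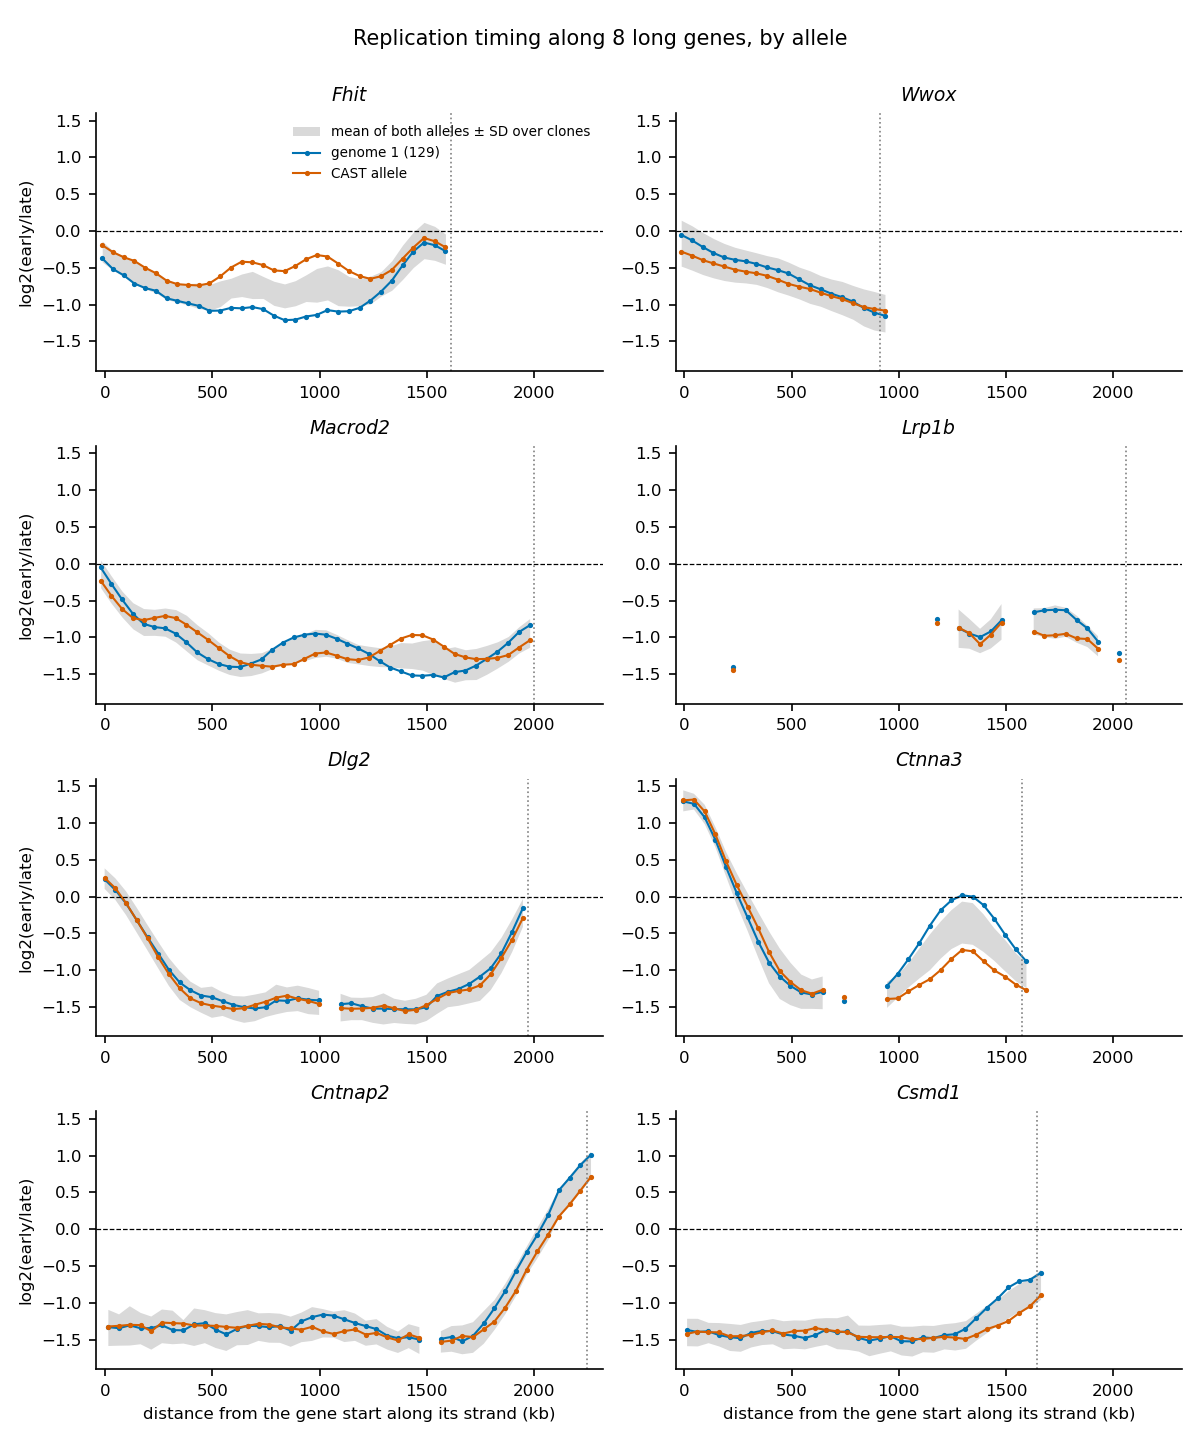
Mean log2(E/L) along the 8 genes against the distance from the gene start along its strand (kb), with genome 1 in blue, CAST in orange and mean ± SD over clones of both alleles in grey; the dotted line marks the gene end, and gaps are windows measured in too few clones. Ctnna3 falls from 1.30 to −1.39 and Cntnap2 rises from −1.54 to 0.86, while Csmd1 stays below 0 throughout.

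The question of whether a gene's start and end differ was tested with limma on the first 5 windows minus the last 5, over all genes of at least 500 kb. Of the 7 genes that could be tested 6 were called (adjusted p under 0.05 and a difference of at least 0.25), where 67.3% of the 208 long genes tested were. Ctnna3 was earlier at its start by 1.77 (SE 0.026, adjusted p = 2.3e-56), Wwox by 0.73 (SE 0.047, adjusted p = 3.7e-22), Dlg2 by 0.61 (SE 0.034, adjusted p = 5.2e-25) and Macrod2 by 0.60 (SE 0.030, adjusted p = 1.4e-27). These 4 stand beside a background in which 25% of long genes were earlier at the start and 42.3% at the end. Cntnap2 had a start minus end difference of −1.83 (SE 0.044, adjusted p = 7.0e-40) in 44 clones and Csmd1 of −0.47 (SE 0.021, adjusted p = 2.3e-29) in 51. Each of these 6 had the direction of its mean in every clone but 1 clone of Wwox. Fhit, at −0.23 (SE 0.033, adjusted p = 6.2e-09), missed the least difference. With genome 1 alone it was −0.32, and with each deletion line as 1 replicate −0.26, both called. Lrp1b was not tested, since its start was measured in 19 clones.

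A second test set each gene against the 10 windows on either side of it. Of the 8 genes 6 were called, where 64.4% of 216 long genes were, and 58.8% were later than their flanks. Dlg2 was set apart most, with −1.83 (SE 0.028, adjusted p = 3.8e-54): its flanks had means of 0.93 before the start and 0.69 after the end. Fhit had −0.999 (SE 0.012, adjusted p = 3.2e-57), Cntnap2 −0.97 (SE 0.035, adjusted p = 5.1e-35), Macrod2 −0.84 (SE 0.017, adjusted p = 2.6e-48) and Ctnna3 −0.74 (SE 0.046, adjusted p = 9.2e-23). These 5 were later than the mean of both flanks together in every clone, except for 1 clone of Ctnna3. The sides could differ. Ctnna3 had 1.27 before its start and −1.34 after its end, Cntnap2 −1.36 and 1.03, and Macrod2 0.52 and −0.98. The gene means of Ctnna3 and Cntnap2 thus lay between those of their flanks, and that of Macrod2 lay close to its flank after the end. Both flanks were averaged over the windows with a value, so a clone lacking late flank windows was set mainly against the early flank. The late flank had a mean in 44 clones for Ctnna3 and in 45 for Cntnap2. Their differences ran from −1.73 to 0.04 and from −1.63 to −0.53 over 53 clones, and the share due to missing windows was not tested.

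Wwox was the exception. It was earlier than its flanks by 0.34 (SE 0.015, adjusted p = 4.0e-30, all 53 clones), a direction called in 5.56% of long genes. The flank before its start had −0.68 ± 0.24 and the flank after its end −1.30 ± 0.21, and the first 5 windows of the gene, at −0.30 ± 0.28 (SD, n = 53 for each), lay above both. Csmd1 (−0.23, SE 0.017, adjusted p = 2.2e-19) and Lrp1b (0.11, SE 0.019, adjusted p = 6.3e-07, n = 38) missed the least difference and lay within a late surround. With flanks of 20 windows Csmd1 was called, at −0.65.

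A transition within the gene, a crossing of 0 by the mean curve, was present in 3 of the 8 genes, beside 42.9% of 205 other genes of at least 500 kb and 34.4% of the 61 at least as long as Wwox. Ctnna3 crossed at 261 kb in intron 5 and Cntnap2 at 2054 kb in intron 20, each in 53 of 53 clones. Dlg2 crossed at 74 kb in intron 3 (51 of 53 clones). In the other 5 the mean curve stayed below 0, and single clones had a crossing in 18 of 51 for Fhit, 17 of 53 for Wwox, 14 of 53 for Macrod2, 3 of 47 for Lrp1b and 0 of 53 for Csmd1.

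The size of the change over 500 kb does not depend on where 0 lies. It was −2.58 in Ctnna3, 2.20 in Cntnap2 and −1.68 in Dlg2, beside a median size of 0.79 in the 205 other long genes. Macrod2 (−1.02) was also above that median. Csmd1 changed by 0.74, Fhit by −0.62, Wwox by −0.53 and Lrp1b by −0.17 over 500 kb, all below it. The Lrp1b value rests on the 15 of 43 windows measured in enough clones, with means from −1.42 to −0.67, so larger changes can have been missed. The 3 genes with a crossing thus also had the 3 steepest measured slopes of the group.

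The position of the crossing was compared between alleles within each clone (plot of crossing positions by allele). In Cntnap2 genome 1 crossed at 2029 ± 39 kb from the start (SD, n = 53; lowest 1945, median 2035, highest 2132) and CAST at 2083 ± 53 kb (lowest 1995, median 2075, highest 2236). The difference was −53.5 ± 33.4 kb (SD), with genome 1 nearer to the start in 52 of 53 clones (two-sided sign-flip permutation p = 1e-05, the smallest the permutations can give; adjusted p = 1.5e-05 over the 3 genes). The 3′ part of Cntnap2 above 0 thus began nearer to the start on genome 1. Genome 1 also had higher values there, 0.70 against 0.34 on CAST at 2166 kb. Whether the boundary moved apart from this level was not tested.

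In Ctnna3 genome 1 crossed at 258 ± 36 kb (lowest 197, median 248, highest 372) and CAST at 274 ± 45 kb (lowest 184, median 269, highest 391). The difference of −16.1 ± 20.6 kb (SD, n = 53), genome 1 nearer in 43 clones, had the same p and adjusted p, but is under 1 window of 50 kb. In Dlg2 the difference was −2.31 ± 26.9 kb (SD, n = 46; permutation p = 0.567), with genome 1 nearer in 28 clones and farther in 18. Windows were smoothed over 300 kb by the authors, so a position within a window comes from interpolation of smoothed values.

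**Figure D3:**
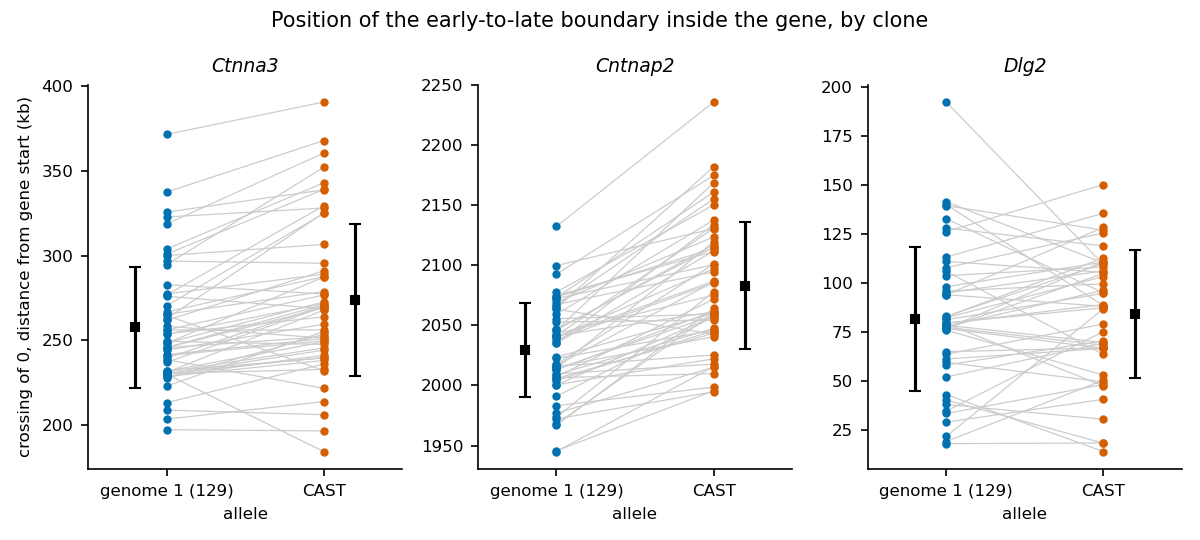
Distance from the gene start at which each clone's curve crosses 0 (kb), for genome 1 and CAST, with lines joining the alleles of a clone and squares with bars for mean ± SD over the clones with a crossing on both alleles. In Cntnap2 the genome 1 points lie nearer to the start in 52 of 53 clones; each axis has its own range and does not start at 0.

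The alleles differed most in Fhit. Averaged over the gene, genome 1 minus CAST was −0.38 (SE 0.016, lowest −0.62, median −0.39, highest −0.17), below 0 in 51 of 51 clones (limma adjusted p = 1.5e-30). Fhit was called, 1 of the 8 (adjusted p under 0.05 and a difference of at least 0.25), where 12.6% of 19312 genes were called, 6.29% with genome 1 lower and 6.35% with it higher. With only windows that had a value in every library, Cntnap2 (0.29) and Csmd1 (0.34) were called too. These 2 values rest on at most 10 of 46 windows in Cntnap2 and 15 of 34 in Csmd1. With each column centred on its median Ctnna3 was called (0.25). The size of the difference was smaller than that of Fhit in 93.6% of all genes, with a median of 0.054.

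Ctnna3 lay just under the threshold, with 0.24 (SE 0.013, lowest 0.03, median 0.25, highest 0.38, adjusted p = 3.9e-25), above 0 in 53 of 53 clones. Lrp1b (0.14), Cntnap2 (0.10), Wwox (0.09), Csmd1 (0.09) and Dlg2 (0.04) also had higher values on genome 1, with adjusted p between 2.4e-09 and 0.014. By adjusted p alone 7 of the 8 passed, where 49.0% of all genes did. Macrod2 had −0.02 (SE 0.017, adjusted p = 0.28), with genome 1 higher in 22 clones and lower in 31. With only windows that had a value in every library, at most 14 of 41, it was 0.057, of the opposite sign.

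Means over a gene can hide differences of opposite sign, so the test was repeated for each window (plot of genome 1 minus CAST along each gene), a test added after the data had been seen. Of the 256 windows of the 8 genes with enough values 24 were called (adjusted p under 0.05 and a difference of at least 0.5), or 9.38%, where 5.53% of the 44179 windows of the genome were; 9 were higher on genome 1 (background 2.47%) and 15 lower (background 3.07%). Fhit and Ctnna3 held 21 of the 24. Windows next to each other share reads through the smoothing and are not independent. The stretches below are runs of windows called in these same clones. The size and sign of their differences are therefore partly set by that choice and are a description, not a further test.

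In Fhit the called windows formed 1 stretch of 600 kb, chr14:10000001-10600000, from 587 kb on, over introns 4 and 5 and the exon between them. Genome 1 had −1.11 ± 0.14 there (lowest −1.46, median −1.10, highest −0.88, n = 53) and CAST −0.45 ± 0.21 (lowest −1.20, median −0.39, highest −0.08, n = 51). The difference was −0.67 ± 0.17 (SD) and had the same sign in 51 of 51 clones. The inner RefSeq start of Fhit printed above lies in this stretch. The largest difference of a window was −0.82 ± 0.28 at 987 kb in intron 5 (n = 50, adjusted p = 2.9e-28), and at the last window it was −0.05 ± 0.13, so the alleles met again at the 3′ end. Within the stretch the CAST curve had local maxima of −0.42 at 637 kb and −0.33 at 987 kb, while genome 1 stayed between −1.21 and −1.03.

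In Ctnna3 the stretch spanned 450 kb, chr10:64500001-64950000, and ran the other way. Genome 1 had −0.24 ± 0.24 (lowest −0.74, median −0.25, highest 0.34) and CAST −0.95 ± 0.24 (lowest −1.64, median −0.92, highest −0.26), a difference of 0.72 ± 0.15 (SD), above 0 in 53 of 53 clones. The largest difference was 0.81 ± 0.19 at 1195 kb in intron 12 (adjusted p = 7.9e-37). The genome 1 curve reached 0.02 at 1295 kb, so it crossed 0 at 3 points within the gene and the CAST curve at 1.

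Macrod2 had alternating differences that cancelled in its mean. At 880 kb in intron 5 the difference was 0.37 ± 0.28 (n = 44, adjusted p = 4.4e-12), below the least difference, and at 1480 kb in intron 8 it was −0.55 ± 0.37 (n = 46, adjusted p = 1.7e-14). The called stretch of 150 kb, chr2:141800001-141950000, had a difference of −0.55 ± 0.35 (SD), lower on genome 1 in 42 of 43 clones.

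No window was called in the other 5 genes, whose largest differences all had genome 1 higher. Csmd1 had 0.46 ± 0.16 at 1511 kb over exons 38 to 44 (52 of 52 clones, adjusted p = 3.8e-27) and Cntnap2 0.36 ± 0.14 at 2166 kb in intron 21 (53 of 53 clones, adjusted p = 4.8e-25). Lrp1b had 0.36 ± 0.21 at 1729 kb (48 of 48 clones, adjusted p = 1.8e-16). Genome 1 was the earlier allele in all 3 windows. Wwox had its largest difference in its first window (0.23 ± 0.17, 50 of 53 clones), and Dlg2 had 0.13 ± 0.12 in its last (48 of 53).

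**Figure D4:**
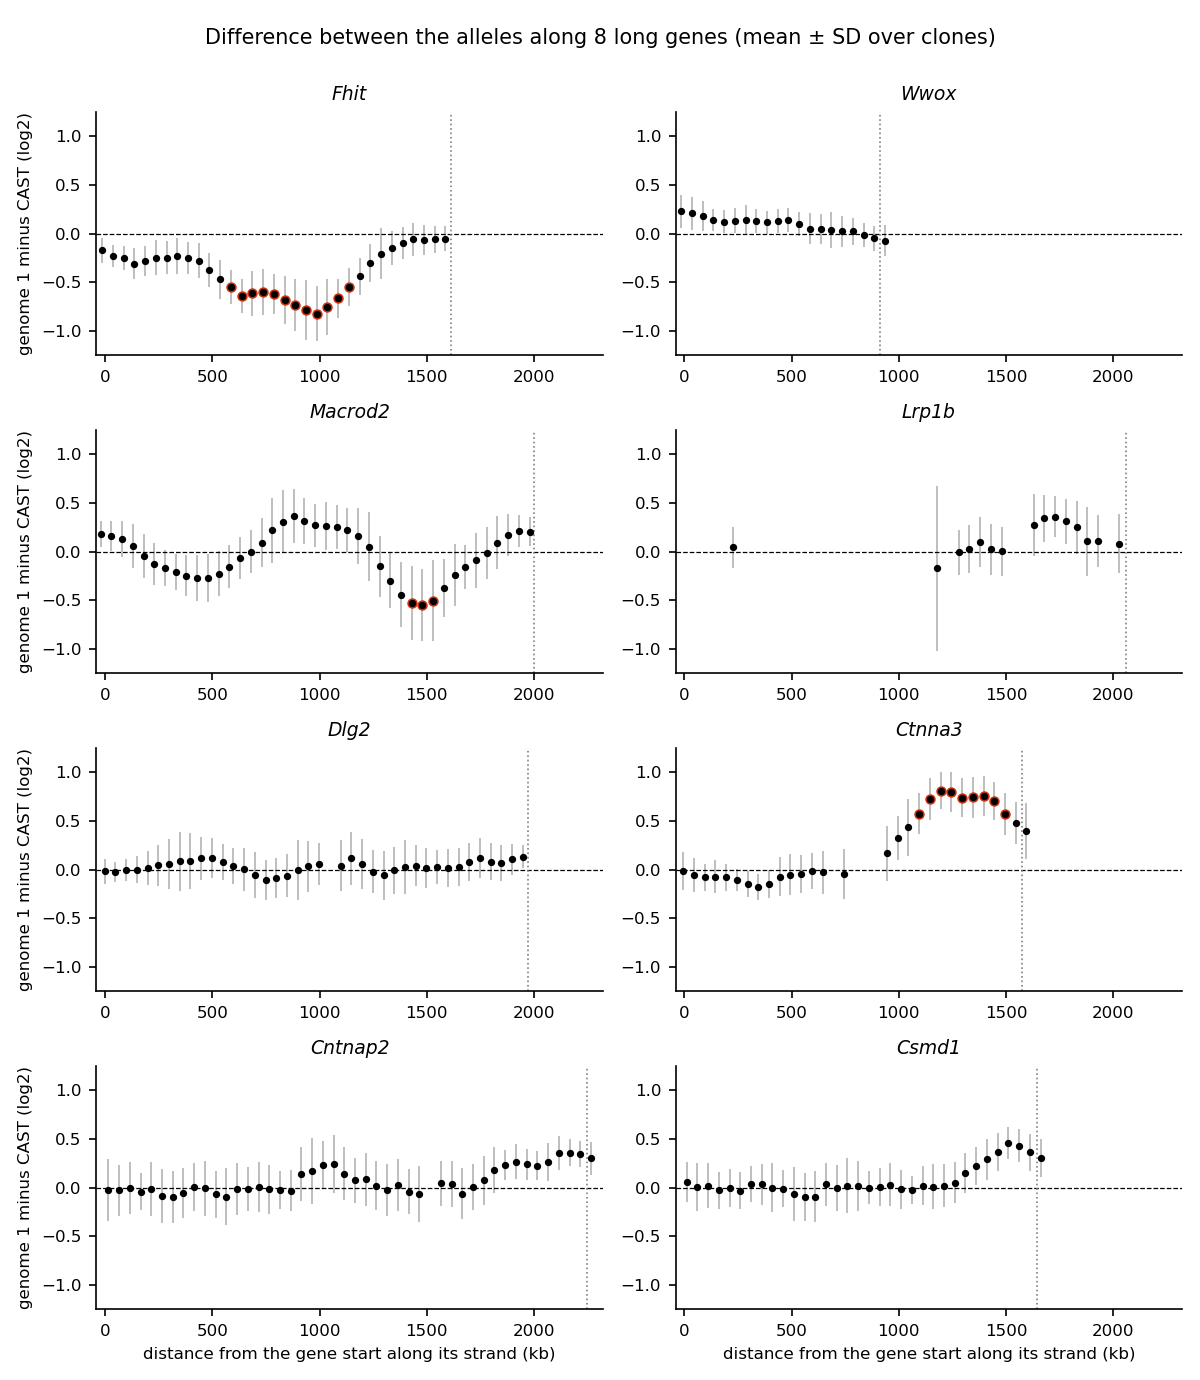
Genome 1 minus CAST, in log2(E/L), for each 50 kb window along the 8 genes against the distance from the gene start (kb); points are means and bars SD over clones, and red rings mark windows called at a difference of at least 0.5. The rings form runs of 12 windows in Fhit, 9 in Ctnna3 and 3 in Macrod2.

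How the genes vary between clones was described by the SD of the gene mean over clones, beside the SD between repeat cultures of 1 clone (11 clones with at least 2 libraries). In Fhit the clones had an SD of 0.129 and the repeat cultures 0.043, a ratio of 2.97. In Wwox they had 0.185 and 0.053, a ratio of 3.48. Clones thus differed more than cultures of a clone in these shallow, well measured genes. Cntnap2 had the widest clone SD, 0.276, wider than in 95.6% of all genes, but its repeat cultures had 0.214.

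Dlg2 had 0.208 between clones and 0.113 between cultures, Csmd1 0.152 and 0.089, Ctnna3 0.201 and 0.175, and Macrod2 0.124 and 0.108. In Lrp1b the cultures (0.185) differed more than the clones (0.157). The median clone SD of the 8 was 0.171, beside 0.163 for long genes and 0.162 for all genes. These medians were 0.128, 0.147 and 0.162 with window means removed and 0.118, 0.150 and 0.187 with each column centred on its median, so their order depended on the processing. With window means removed it was 0.126 for Cntnap2 and 0.102 for Dlg2, less than in the plain means, and it stayed at 0.129 for Fhit and 0.185 for Wwox.

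The deletions are the study's conditions, and the moderated F test of limma over the 19 deletions with at least 2 clones asks whether genes on other chromosomes differ between them (18 deletions for Fhit and 16 for Lrp1b, where values were missing). All 8 genes were called (adjusted p from 1.8e-05 for Ctnna3 to 0.028 for Wwox), where 56.4% of 19221 genes were. Culture, sorting and sequencing of the clones of a deletion cannot be told apart from the deletion. The difference is one between sets of clones.

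Ctnna3 had the largest F, 7.07, with the 3 ATSS.BTSS.CTSS clones between −0.89 and −0.85 and the 2 CR14.6k clones at −0.29 and −0.11. ATSS.BTSS.CTSS was also the latest line in Cntnap2 (−1.37 to −1.34), Dlg2 (−1.33 to −1.26), Csmd1 (−1.66 to −1.58) and Lrp1b (−1.41 to −1.26). In Cntnap2 the earliest line, A.COSN12, had −0.57 and −0.23, and the 2 lines were 0.96 apart. With window means removed, the distance between the latest and the earliest line of Cntnap2 was 0.45, with CR13.4k as the earliest, and that of Dlg2 went from 0.69 to 0.30. That of Ctnna3 went from 0.67 to 0.46 between the same 2 lines, with an F of 5.15. Its ATSS.BTSS.CTSS clones kept their values, while its CR14.6k clones came to −0.51 and −0.30.

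In Fhit, of which few windows were missing, the 2 CL20k clones had −1.09 and −0.93 and the 2 CTSS clones −0.51 and −0.45 (F = 3.25, adjusted p = 0.0055). Removing the window means left this distance at 0.53. In Wwox the 2 AOSN.COSN123 clones had −0.99 and −0.72 and the 2 Z.B.C clones −0.49 and −0.24. The Wwox call was lost without AOSN.COSN123 clone A6 (adjusted p = 0.051) or Z.B.C clone A6 (0.070), and the Lrp1b call without ATSS.BTSS.CTSS clone A1 (0.056). Lrp1b was also not called with window means removed (adjusted p = 0.13). The allele difference, by contrast, was called between deletions in 0 of the 8 genes (limma moderated F, background 4.26%), with an unadjusted p under 0.05 for Macrod2 (0.0097) and Lrp1b (0.0034).

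Genes of like kind were examined by lists. Of 12 other fragile-site genes 11 were below 0, with a median of −0.92 and values from −1.35 in Astn2, a neuronal migration gene, to 0.33 in Immp2l, which encodes an inner membrane peptidase of mitochondria. A crossing of 0 was present in 6 of these 12. Of the 12, 2 were called for an allele difference, both with genome 1 lower, where 12.6% of all genes were called. Auts2, with −0.26, was among them. Of 30 other long adhesion and synapse genes 26 were below 0, with a median of −1.09, from −1.43 in Nrxn3, a presynaptic adhesion gene, to 0.86 in Tenm4. In this list 7 of 29 with enough windows had a crossing. Of the 30, 4 were called for an allele difference, 3 with genome 1 lower and 1 with it higher. The 3 were Csmd2 (−0.33), the neuregulin receptor gene Erbb4 (−0.28) and Tenm4 (−0.48). The list also holds 5 of the paralogs below.

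The paralogs of the 8 genes split by length. The short ones were early: Macrod1 (1.32), Lrp1 (1.31), Dlg1 (1.21), Dlg4 (1.29), Ctnna1 (1.32) and Cntnap1 (1.33), at 212 kb or less. The long ones were late: Cntnap5a (−1.40), Cntnap5b (−1.39), Cntnap4 (−1.31), Ctnna2 (−1.30), Csmd3 (−1.26) and Csmd2 (−0.35), at 313 kb or more. The same family could thus hold both kinds, as with the alpha-catenins Ctnna1, Ctnna2 and Ctnna3. The plot of related genes shows the lists.

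**Figure D5:**
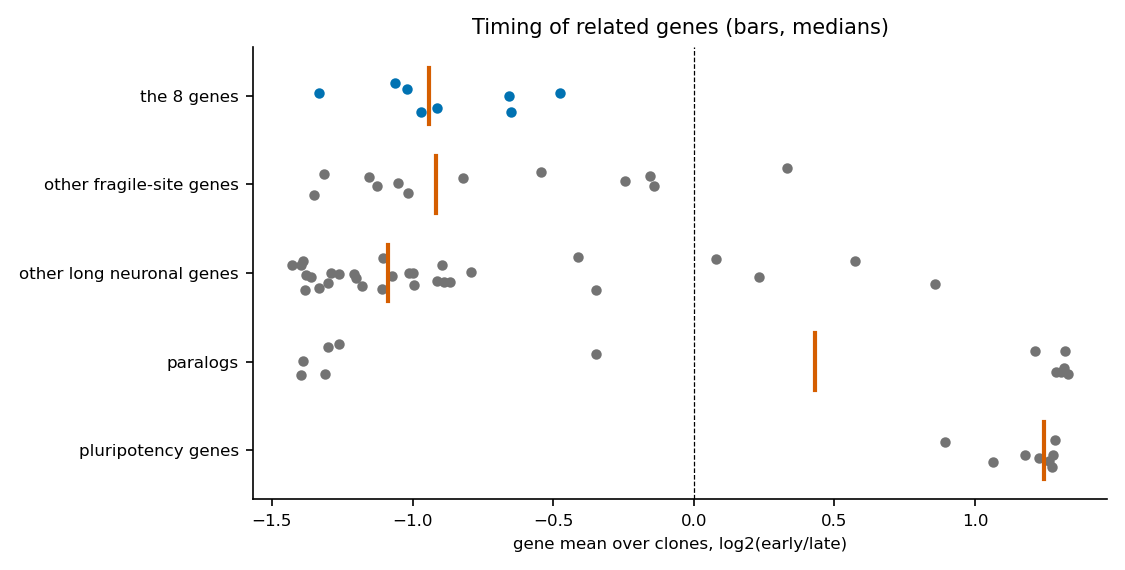
Mean log2(E/L) over clones of each gene (points), with the list median (bar), for the 8 genes and 4 lists of related genes; vertical offsets only separate points. The fragile-site and neuronal lists have medians of −0.92 and −1.09, near the −0.94 of the 8 genes, while the paralogs fall into an early and a late group and the pluripotency genes lie at 0.89 or above.

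The long gene with the most similar curve was sought among 205, by the root mean square (RMS) difference over 20 equal bins from start to end. Csmd1 was nearest to Nrg3, a neuregulin gene, with an RMS of 0.057, and Lrp1b to Rims1, a presynaptic scaffold gene, with 0.107. Macrod2 (Cdk14, 0.113), Wwox (Mctp1, 0.119) and Fhit (Alk, 0.152) also had near neighbours. Dlg2 (Ptprt, 0.300) and Ctnna3 (Sugct, 0.481) had less similar ones. The 8 genes had a median GC content of 39.0%, beside 40.1% in long genes and 41.4% in all windows. Along single genes the correlation of RT with GC, over windows that share reads through smoothing, had a Pearson's r of 0.80 in Cntnap2 (Spearman's rho 0.36, n = 45) and 0.64 in Ctnna3 (rho 0.40, n = 29), and r lay between −0.05 and 0.44 in the others.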

How the data were processed

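Early and late S phase cells were separated by FACS after a BrdU pulse of 2 h. Genome 1 is the 129 allele and genome 2 the CAST allele. The authors trimmed reads with Trim Galore and cutadapt, aligned them with bowtie2 to an N-masked mm10 genome, assigned them to alleles with SNPsplit, removed duplicates with Samtools, counted reads in 50 kb windows with bedtools, and deposited log2 ratios of early over late reads that were scaled, quantile-normalized and loess-smoothed over 300 kb; versions are not given in the sources used here. The deposited table held 138 columns, all used (66 libraries). Of 71 labelled libraries 5 had no column and were not analysed here. Counts behind the log2 values were not used here, so depth is unknown, and 73.8% to 93.8% of windows had a value. Window coordinates had the chromosome lengths of GRCm38 on all 19 autosomes.

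The 8 genes, the lists and the thresholds were chosen with earlier results of these data known. Named were the 8 genes, their nearest curves, the lowest and highest gene of each list, the paralogs, and, after their values were seen, list genes called for an allele difference; some of these and 1 nearest curve are not reported here. Values of a gene were averaged over windows (at least 10% of them), then over the libraries of a clone. Genes needed 27 clones, gene ends 40% of their windows and flanks 25%; these minimums were lowered after seeing that stricter ones dropped Lrp1b and Fhit. Repeat runs of 3 libraries were averaged. limma (3.58.1, R 4.3.3) was fitted over all genes, or all genes of at least 500 kb, with Benjamini-Hochberg adjustment. It was also run on simulated data with independent clones, which does not cover the shared lineages of the clones here. Remaining steps used scipy 1.17.1, pandas 2.3.3 and numpy 2.4.6 under Python 3.11.15. Sign-flip and correlation tests drew 100000 permutations. The crossing of a clone was sought within 300 kb of that of the mean curve. A whole chromosome of an allele was without values in 13 libraries of 10 clones. Alternatives were other units of replication, least differences, window filters, end and flank widths, centred columns, single alleles and each clone left out, and, chosen after seeing the data, window means removed.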

Additional observations from a re-analysis of the deposited data

Results flagged for a closer look

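In 78 groups of 4 to 10 libraries, 2 held a library far from the others. For independent values chance alone gives about 1 in 20 groups. The groups here are not independent: they are the same sets of libraries, repeat cultures among them, taken for each gene and for 2 measures. In the 4 A.B.COSN123 libraries, genome 1 minus CAST of Lrp1b was 0.365 in replicate 2 of clone 2E.1 and between 0.192 and 0.220 in the others. In the 4 CTSS libraries, genome 1 minus CAST of Dlg2 was 0.041 in replicate 1 of clone C4 and between 0.147 and 0.160 in the others. Without either clone the number of genes called for an allele difference stayed at 1.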

How the results depend on the processing

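The number of genes called for an allele difference was 1 and became 0 with a least difference of 0.5, 7 with none, 3 with only windows that had a value in every library and 2 with each column centred on its median. With the replicate numbers of the labels as a replicate block it was 1, and 8 genes were then called between deletions, so the replicate block changed neither count. The numbers did not pair the samples across the series. Over 55 pairs of the 11 clones with repeat cultures, the differences between replicates 1 and 2 correlated between −0.36 and 0.49. The median was 0.005, with 15 pairs above 0.1. The highest value was that of the 2 CTSS clones, so something shared within CTSS is not excluded. Leaving out each clone in turn gave 1 to 1 genes for the alleles, 6 to 6 for start against end, 6 to 6 for the flanks and 7 to 8 between deletions. The median spread between clones went from 0.171 to 0.118 with centred columns. Between deletions, Wwox was not called without the incomplete libraries (adjusted p = 0.26), with genome 1 alone (0.073) or with CAST alone (0.0503), and Macrod2 with genome 1 alone (0.052). Of 297 single alternatives other than leaving out a clone, 269 kept their direction and side of the threshold or moved little, 9 lost the call, 18 gained it, 0 called values reversed and 1, the spread with centred columns, moved. The cause was not tested. Values rest on ratios of unknown depth, missing most often in late windows, smoothed over 300 kb, and on clones that share lineages.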
